A study of Homo sapiens with 12 samples.

Results

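The IFIT and IFITM families are 2 groups of interferon-induced genes, and 7 of their human members were followed here: IFIT1, IFIT2, IFIT3 and IFIT5, and IFITM1, IFITM2 and IFITM3. They were picked by gene symbol, as members of these families, with earlier results of these data known. All 7 have a row in both deposited count tables, and make up 7 of the 26226 genes counted in KBM7 and 7 of the 28328 counted in K562.

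KBM7 and K562 are human cell lines derived from chronic myelogenous leukemia in blast crisis, and the labels name no interferon treatment. In the siUSP15 cells USP15, a deubiquitinating enzyme, was depleted with pooled siRNAs, and the siCtrl cells received a non-targeting pool, so that both groups carried transfected double-stranded RNA. Total RNA was taken 72 h after transfection. There were 2 siUSP15 and 2 siCtrl libraries of KBM7, and 4 siUSP15 and 4 siCtrl libraries of K562. No source states that replicates were separate cultures, so p-values cover only the spread between these libraries. No group without transfection was analysed here.

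IFIT proteins are cytosolic RNA-binding proteins built of tetratricopeptide repeats. IFIT1 binds capped RNA that lacks ribose methylation next to the cap and blocks its translation. IFIT3 binds IFIT1 and strengthens that activity, IFIT2 joins them in a complex, and IFIT5 binds uncapped RNA with a triphosphate end. IFITM proteins are small membrane proteins that hinder the fusion of viral and cellular membranes. IFITM1 sits mainly at the cell surface, and IFITM2 and IFITM3 mainly in endosomes. Type I interferon switches on both families through a transcription factor complex that contains IRF9 and binds the interferon-stimulated response element (ISRE) in promoters. Interferon regulatory factors such as IRF3 and IRF1 can bind the same element.

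The members lie in 2 clusters, given here by the coordinates of the deposited tables (hg38). On chromosome 10 the tables place IFIT2 at 89301955 to 89309276, IFIT3 at 89327894 to 89340971, IFIT1 at 89392546 to 89406486 and IFIT5 at 89414586 to 89421001. On chromosome 11 they place IFITM2 at 307631 to 315272, IFITM1 at 313506 to 315272 and IFITM3 at 319669 to 327537. Some of these gene models overlap. The 1767 bases of IFITM1 lie wholly inside the span given for IFITM2, and the span of LIPA, a lysosomal lipase gene, covers IFIT1, IFIT2 and IFIT3. Counting by strand was not stated in the sources used here, so reads of overlapping genes may have been split or dropped.

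Promoter sequences show what the members share. Of the 7 members, 5 matched the RefSeq promoter table (GRCh38.p14, 250 bases before to 50 after a start), with 6 promoters, since IFIT3 has 2. Each was searched on both strands for the ISRE core, GAAA followed by any 2 bases and a second GAAA, and all 6 held 2 or 3 matches. Of all 35116 promoters of that length, 3.57% held at least 1 match and 0.259% held at least 2. Printed are 5 promoters, 5′ to 3′ on the gene's own strand, with the ISRE core matches in capitals. A match in the opposite orientation reads TTTC, any 2 bases and TTTC. They are IFIT1 (chr10:89392373-89392672, plus strand), IFIT3 at its upstream start (chr10:89327747-89328046, plus), IFIT5 (chr10:89414318-89414617, plus), IFITM1 (chr11:313790-314089, plus) and IFITM3 (chr11:320811-321110, minus).
IFIT1: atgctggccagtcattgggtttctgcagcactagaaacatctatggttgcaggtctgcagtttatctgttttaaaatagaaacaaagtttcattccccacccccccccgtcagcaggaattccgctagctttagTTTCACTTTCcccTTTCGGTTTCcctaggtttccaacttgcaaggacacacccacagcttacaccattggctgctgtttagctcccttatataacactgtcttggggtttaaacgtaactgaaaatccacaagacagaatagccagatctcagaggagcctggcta
IFIT3: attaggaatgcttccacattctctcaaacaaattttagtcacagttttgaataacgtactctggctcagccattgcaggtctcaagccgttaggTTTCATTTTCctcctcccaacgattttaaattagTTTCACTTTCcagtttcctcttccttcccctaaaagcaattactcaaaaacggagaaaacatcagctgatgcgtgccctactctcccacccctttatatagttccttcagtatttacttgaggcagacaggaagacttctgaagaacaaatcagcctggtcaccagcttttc
IFIT5: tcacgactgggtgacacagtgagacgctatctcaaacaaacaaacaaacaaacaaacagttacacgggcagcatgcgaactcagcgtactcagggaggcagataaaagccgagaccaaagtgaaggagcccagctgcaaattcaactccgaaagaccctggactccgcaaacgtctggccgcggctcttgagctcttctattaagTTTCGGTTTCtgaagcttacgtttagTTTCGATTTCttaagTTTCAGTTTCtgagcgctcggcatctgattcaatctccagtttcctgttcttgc
IFITM1: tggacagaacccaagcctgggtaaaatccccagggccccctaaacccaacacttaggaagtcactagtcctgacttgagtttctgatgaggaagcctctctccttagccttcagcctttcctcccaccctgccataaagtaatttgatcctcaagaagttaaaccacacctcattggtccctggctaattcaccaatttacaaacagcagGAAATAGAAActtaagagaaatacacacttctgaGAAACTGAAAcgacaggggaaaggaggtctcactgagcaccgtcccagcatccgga
IFITM3: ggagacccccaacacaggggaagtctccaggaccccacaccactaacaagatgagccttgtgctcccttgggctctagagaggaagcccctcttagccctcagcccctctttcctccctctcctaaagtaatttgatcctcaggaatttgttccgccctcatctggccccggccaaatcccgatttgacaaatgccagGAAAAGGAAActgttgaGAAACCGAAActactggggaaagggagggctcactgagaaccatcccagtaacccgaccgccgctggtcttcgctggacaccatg

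In IFIT1 the matches began 116 and 103 bases before the start. In IFIT3 they began 156 and 122 bases before the upstream start and 94 and 51 bases before the other one. In IFIT5 the 3 matches began 45, 19 and 4 bases before the start, so the last one ran across it. The IFIT matches all read in the opposite orientation, and those of IFITM1 (40 and 6 bases before the start) and IFITM3 (52 and 35 bases before it) read in the orientation of the gene. The gamma-activated site motif (GAS) TTCNNNGAA matched in the IFITM1 promoter, 12 bases before the start, and in none of the other 5. It matched in 7.66% of all promoters. These are matches of letters and not measurements of binding.

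Library totals were 23450607 to 29441118 counts in KBM7 and 23020401 to 43566543 in K562. Levels are given as normalized CPM, counts scaled to a common library size with TMM factors. USP15 averaged 114 ± 0.846 CPM in siUSP15 and 213 ± 4.28 CPM in siCtrl libraries of KBM7 (SD, n = 2 each). In K562 it averaged 159 ± 40.6 CPM in siUSP15 and 304.2 ± 37.6 CPM in siCtrl libraries (SD, n = 4 each). The K562 libraries of replicates 1 and 2 stood apart from those of replicates 3 and 4 with either siRNA. The first principal component held 64.4% of the variance, and whether it followed these sets was not tested. The column of K562 siUSP15 replicate 3 is named differently from the other siUSP15 columns and was assigned by its sample's title. That library had 191 CPM of USP15, below each siCtrl library of K562 (269 to 343 CPM). Blood cell genes such as PTPRC were expressed in both lines. Of 14 markers of cells that these cultures should lack, 11 had a row in KBM7 and 5 of these averaged above 1 CPM there, with PECAM1, CD3D and CDH5 the highest. COL1A2, APOA1, MS4A1 and EPCAM had at most 0.253 CPM in any KBM7 library, whereas K562 expressed EPCAM at 83.4 to 95.2 CPM.

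All 4 IFIT genes were called higher with siUSP15 in KBM7 at an adjusted p under 0.05, as were 13.2% of the 14980 genes tested. In such bulk RNA a larger share of expressing cells and more RNA per cell cannot be told apart. IFIT3 had 433 and 423 normalized CPM in the siUSP15 libraries, against 235 and 223 in the siCtrl libraries. IFIT1 had 346 and 344 CPM in siUSP15 cells, against 226 and 200.1 in siCtrl cells. For neither gene did the groups overlap, and the siUSP15 libraries lay closer to each other than the distance between the groups. IFIT5 had 137 and 136 CPM in siUSP15 libraries, against 90.4 and 86.2 in siCtrl libraries. IFIT2, whose protein joins IFIT1 and IFIT3 in their complex, had 240.3 and 254 CPM in siUSP15 cells, against 189 and 186 in siCtrl cells. These groups did not overlap either. The log2 fold changes, each with its standard error, were 0.90 ± 0.0443 for IFIT3, 0.70 ± 0.0544 for IFIT1, 0.63 ± 0.0459 for IFIT5 and 0.40 ± 0.0449 for IFIT2. Adjusted p from edgeR's quasi-likelihood test was 1.69e-07 for IFIT3, 3.71e-06 for IFIT1, 2.37e-06 for IFIT5 and 6.35e-05 for IFIT2.

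The 3 IFITM genes ranged in KBM7 from the largest to the smallest change among the 7 members. IFITM3, the member best known for blocking influenza virus entry from endosomes, had 67.2 and 51.8 CPM in siUSP15 libraries, against 22.2 and 18.5 in siCtrl libraries. Its log2 fold change was 1.55 ± 0.116 (SE, adjusted p = 2.84e-06 from edgeR), or 2.92 times the siCtrl mean, and 99.5% of the 14980 genes tested had a lower log2 fold change. IFITM1 had 149 and 129 CPM in siUSP15 cells, against 107 and 99.1 in siCtrl cells, with a log2 fold change of 0.43 ± 0.0652 (adjusted p = 5.00e-04). IFITM1 thus rose less than IFITM3 in log2 terms, although the difference between the genes was not tested. IFITM2 had 285 and 257 CPM in siUSP15 libraries, against 256 and 249 in siCtrl libraries. Here the lower siUSP15 library lay only just above the higher siCtrl library. The log2 fold change of IFITM2 was 0.10 with a 95% interval of -0.01 to 0.21 and an adjusted p of 0.171. Of the alternatives, only leaving out siUSP15 replicate 2 brought IFITM2 past the threshold (log2 fold change 0.18, adjusted p = 0.00154), with 15.6% of genes then called higher, and over the others its adjusted p was 0.065 to 0.719. For all 3 IFITM genes replicate 2 lay below replicate 1 within each siRNA.

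In KBM7, 6 of the 7 members were therefore called higher at an adjusted p under 0.05 and none lower, while 13.2% of all genes tested were called higher and 15.8% lower. The libraries did not overlap for any of the 7, with siUSP15 higher each time, as was the case for 32.9% of all genes. The median log2 fold change was 0.63 over the members and 0.00 over all genes tested. The same 6 members were called under each of the other normalizations, filters and tools, and with any 1 library left out. Summed over the marker list for foreign cell types, siUSP15 libraries had 26.6 to 31.3 CPM and siCtrl libraries 48.9 to 50.9 CPM. The 4 myeloid granule genes summed to 37.2 to 40.5 CPM in siUSP15 and 14.03 to 14.7 CPM in siCtrl libraries, and the 7 erythroid genes to 752 to 809 CPM in siUSP15 and 950.2 to 952 CPM in siCtrl libraries. The 10 blood cell identity genes, of which 6 were called lower and 1 higher, summed to 1752 to 1777 CPM in siUSP15 and 2074 to 2106 CPM in siCtrl libraries. The part of these shifts in the members' result was not tested.

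**Figure D1:**
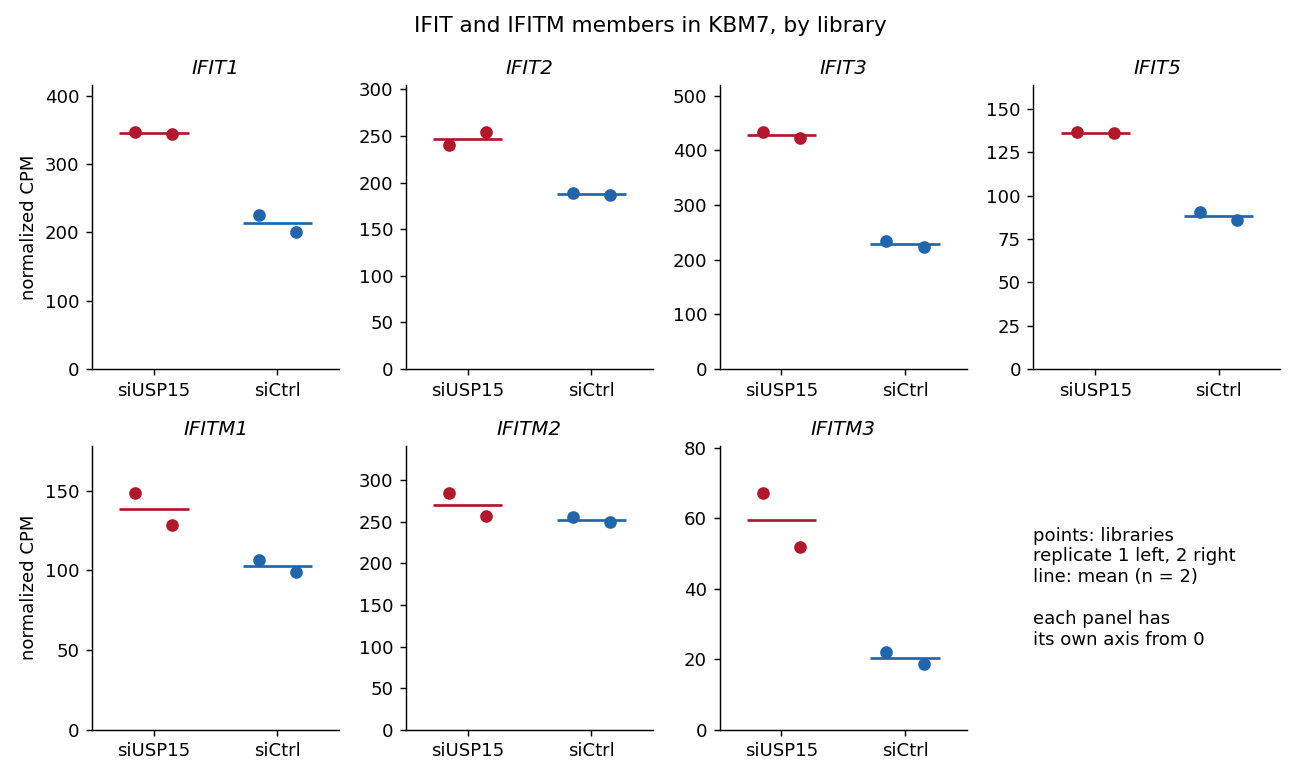
Normalized CPM of the 7 members in each KBM7 library (points, replicate 1 left of replicate 2), with the mean of each group as a line, for siUSP15 (n = 2) and siCtrl (n = 2). In every panel both siUSP15 points lie above both siCtrl points, by the least margin for IFITM2.

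Divided by the length of the canonical GENCODE transcript, the levels can be compared between members. In siUSP15 cells of KBM7 the order was IFITM2 (269 ± 19.7 CPM per kilobase), IFITM1 (208 ± 21.1), IFIT3 (179 ± 2.89), IFITM3 (97.4 ± 17.9), IFIT1 (80.2 ± 0.393), IFIT2 (72.9 ± 2.87) and IFIT5 (33.9 ± 0.0692; SD, n = 2 each). In siCtrl cells of KBM7 it was IFITM2 (251 ± 4.70), IFITM1 (154 ± 7.91), IFIT3 (95.9 ± 3.46), IFIT2 (55.3 ± 0.601), IFIT1 (49.5 ± 4.21), IFITM3 (33.3 ± 4.18) and IFIT5 (21.9 ± 0.735). No neighbours in either order overlapped in these 2 libraries per group, and IFITM3 moved up by 2 places with siUSP15. Its share of the summed IFITM level was 17.9% and 15.9% in siUSP15 libraries, against 8.05% and 7.11% in siCtrl libraries. The share of IFITM2 was 46.0% and 47.9% in siUSP15 cells, against 56.5% and 58.1% in siCtrl cells, and that of IFITM1 was 36.1% and 36.2% in siUSP15 cells, against 35.4% and 34.8% in siCtrl cells. Within the IFIT family the share of IFIT3 was 48.9% ± 0.725 in siUSP15 and 43.1% ± 0.189 in siCtrl libraries, and that of IFIT2 was 19.9% ± 0.810 in siUSP15 and 24.9% ± 0.737 in siCtrl libraries (SD, n = 2 each). The summed IFIT level was 366 ± 0.491 CPM per kilobase in siUSP15 and 223 ± 9.01 in siCtrl libraries. Of the 50-base stretches of the canonical transcript, 20.8% of IFITM3, 15.8% of IFITM1 and 10.0% of IFITM2 also occur in another counted gene, so reads may have been split among the IFITM genes. The figure was 0% for IFIT2 and IFIT5, 1.01% for IFIT1 and 2.52% for IFIT3.

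Other genes that interferon induces moved with the members in KBM7. Of 40 listed genes, all tested, 38 were higher, none lower, and the median log2 fold change was 0.77. Of all genes tested in KBM7, 13.2% were called higher and 15.8% lower. The lists were chosen with earlier results of these data known. Among those with the highest level were RSAD2, the antiviral enzyme viperin (log2 fold change 0.69), CMPK2, a mitochondrial nucleotide kinase (0.03, not called), and PARP14, a mono-ADP-ribosyltransferase (0.53). IFIT3 and IFITM3 lay above that median and the other 5 members below it. Some genes stand in more than 1 list. Of 9 RNA sensing genes tested, 6 were higher and 1 lower. Among the highest expressed, EIF2AK2, the kinase PKR, had a log2 fold change of 0.38 and TRIM25 of 0.42. DDX58, the sensor RIG-I, had one of 0.59, and MAVS, the adaptor of RIG-I, one of 0.09 without a call. Of 18 genes of interferon signalling tested, 7 were higher and 5 lower. STAT2 rose with a log2 fold change of 0.65, JAK1 fell by 0.13 on the log2 scale, and TYK2 (-0.03) was not called. IFNB1, the gene of interferon beta, was low, with 3.47 and 3.84 CPM in siUSP15 cells, against 2.102 and 2.75 in siCtrl cells. Its groups did not overlap, with siUSP15 higher, as was the case for 32.9% of all genes. The log2 fold change of IFNB1 was 0.60 ± 0.185 (adjusted p = 0.0299 from edgeR). Of the 2 interferon genes tested, it was the 1 called higher, and the other had a log2 fold change of 0.08 without a call. IFNB1 in K562 was not analysed here.

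**Figure D2:**
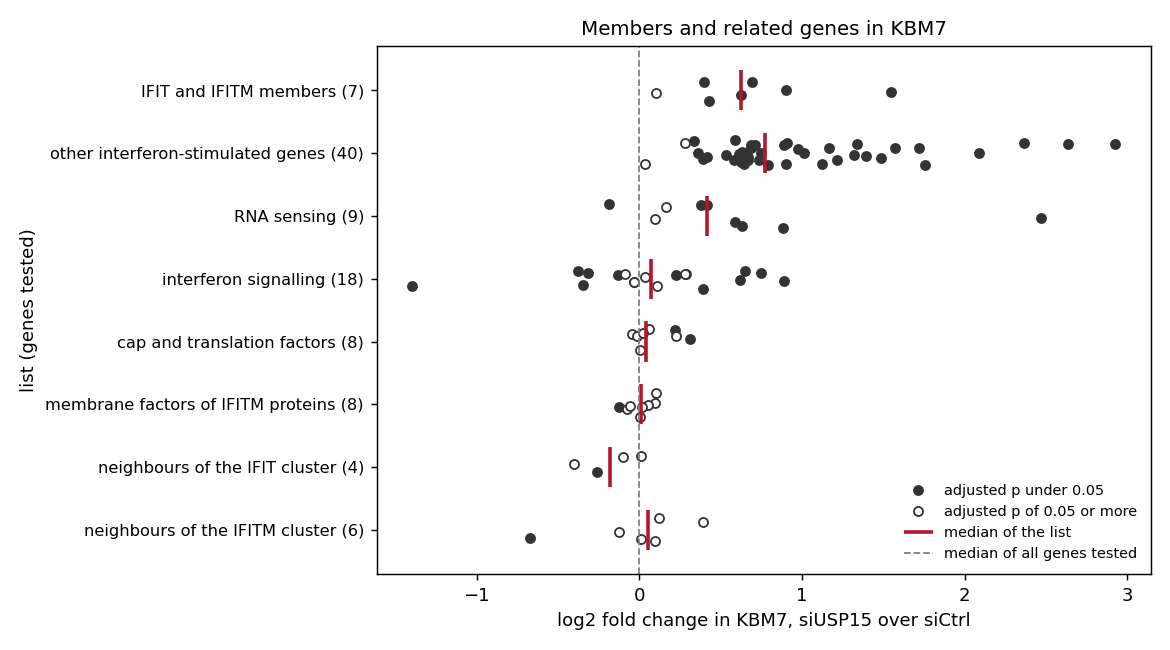
Log2 fold change in KBM7, siUSP15 over siCtrl, of each tested gene in 8 lists (points, filled where the adjusted p is under 0.05), with the median of each list in red and that of all genes tested as a dashed line. Members and other interferon-stimulated genes lie mostly to the right, the partner lists lie around 0, and 3 of the 4 neighbours of the IFIT cluster lie below 0.

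Genes whose proteins work with the members, or that lie next to them, were tested in KBM7 too, where 13.2% of all genes were called higher and 15.8% lower. Of 8 cap and translation factors, 2 were higher and 6 not called. CMTR1, which adds the ribose methyl group whose absence IFIT1 recognizes, rose with a log2 fold change of 0.31, and CMTR2, which methylates the next nucleotide, with one of 0.22. EIF4G1 (-0.02), EIF3E (-0.05), EIF3A (0.06) and EIF4E (0.01), the highest expressed, were not called. Of 8 membrane and modification factors of IFITM proteins, 1 was called, ATP6V0B, a subunit of the vacuolar proton pump, which fell by 0.13 on the log2 scale. VCP (0.02), VAPA (-0.08) and ZMPSTE24 (-0.05), a protease that works with IFITM proteins, were not called. Beside the IFIT cluster, PANK1 fell by 0.26 on the log2 scale, and LIPA (-0.10), KIF20B (0.01) and CH25H (-0.40) were not called. LIPA, whose span covers 3 IFIT genes, thus had 73.4 and 71.6 CPM in siUSP15 libraries, against 77.1 and 78.3 in siCtrl libraries. Beside the IFITM cluster, B4GALNT4 fell by 0.67 on the log2 scale, and PSMD13 (0.01), SIRT3 (0.10), ATHL1 (0.12), SIGIRR (-0.13) and IFITM10 (0.39) were not called. The antisense gene RP11-326C3.11, which overlaps IFITM3 over 5963 bases, had 25 to 40 counts per KBM7 library, against 438 to 1920 for IFITM3.

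K562 cells held little RNA of most members. IFIT1 had 2 to 7 counts, IFIT2 2 to 6 and IFIT5 0 to 2 per siUSP15 library, against 2 to 5, 0 to 6 and 0 to 2 per siCtrl library. A count of 0 allows up to 0.127 CPM, and these 3 genes failed the filter on low counts. IFIT3 had 1.64, 1.505, 1.09 and 1.06 CPM in siUSP15 replicates 1 to 4, against 1.35, 1.17, 0.897 and 0.922 in siCtrl replicates 1 to 4. IFIT3 alone of the IFIT genes passed that filter, at 25 to 66 counts in siUSP15 and 23 to 32 counts in siCtrl libraries. IFITM1 was the most abundant member in K562, at 138, 124, 96.2 and 98.7 CPM in siUSP15 cells, against 138, 134, 106 and 114 in siCtrl cells. IFITM2 had 17.9, 15.002, 8.68 and 7.90 CPM in siUSP15 cells, against 20.7, 22.5, 7.76 and 8.76 in siCtrl cells. IFITM3 was lower still, at 3.41, 2.39, 1.13 and 1.53 CPM in siUSP15 and 2.84, 3.33, 1.40 and 1.15 in siCtrl cells. For all 4 of these genes replicates 1 and 2 lay above replicates 3 and 4 with either siRNA, and for none did the siUSP15 and siCtrl groups separate, as they did for 8.37% of all genes tested.

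Per kilobase, IFITM1 stood at 171 ± 30.4 CPM in siUSP15 and 184 ± 23.7 in siCtrl cells of K562 (SD, n = 4 each). It was followed by IFITM2 at 12.3 ± 4.83 in siUSP15 and 14.8 ± 7.71 in siCtrl cells, by IFITM3 at 3.46 ± 1.66 in siUSP15 and 3.57 ± 1.75 in siCtrl cells, and by IFIT3 at 0.554 ± 0.123 in siUSP15 and 0.454 ± 0.0909 in siCtrl cells. These neighbours did not overlap, and among IFIT1, IFIT2 and IFIT5 counts were too few for an order. IFITM1 made up 91.8% ± 1.78 of the summed IFITM level in siUSP15 and 91.3% ± 3.28 in siCtrl cells of K562. The ranges of IFITM1 overlapped between the lines with either siRNA, while IFITM2 was the leading IFITM gene in KBM7. The 2 lines were counted in separate tables, so line and processing cannot be told apart in such level comparisons. LIPA, which overlaps the IFIT cluster, had 1 to 8 counts per K562 library and 1695 to 2237 per KBM7 library.

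**Figure D3:**
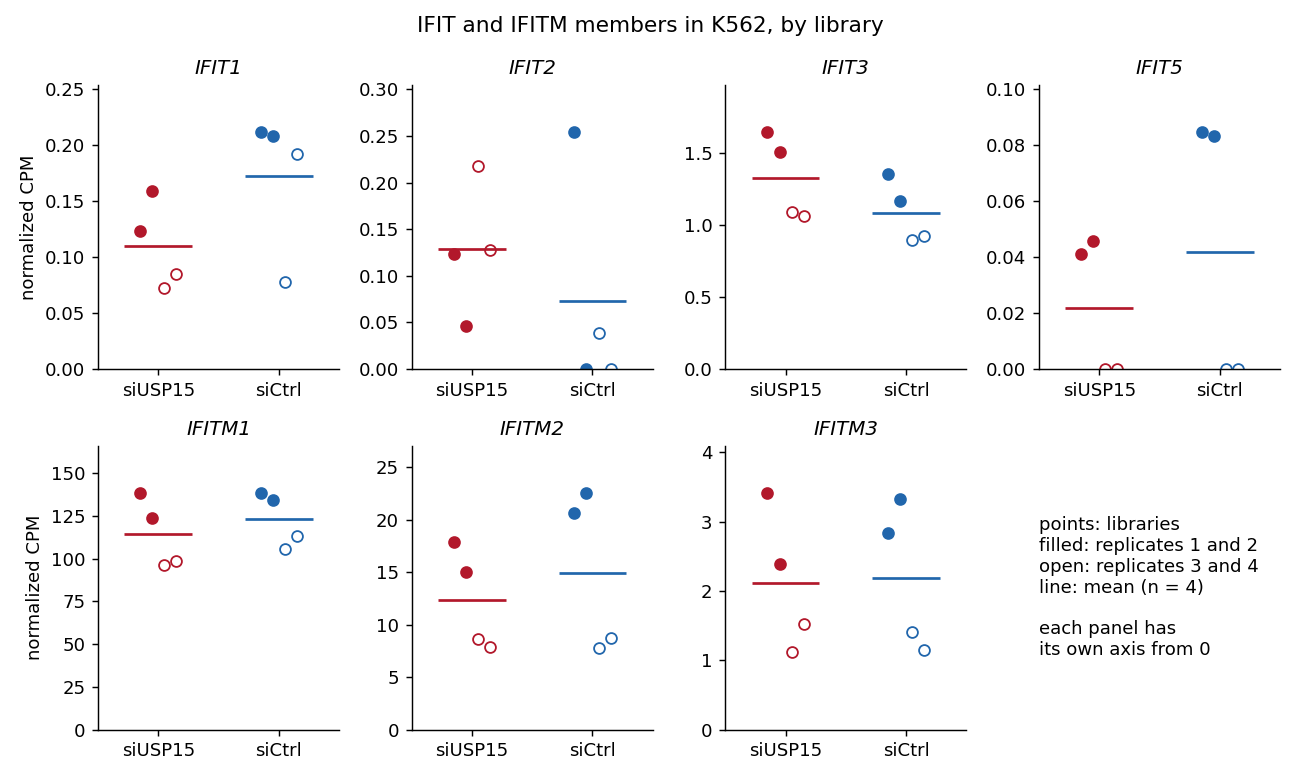
Normalized CPM of the 7 members in each K562 library (filled points for replicates 1 and 2, open for replicates 3 and 4), with the mean of each group as a line, for siUSP15 (n = 4) and siCtrl (n = 4). The filled points of IFIT3 and of the 3 IFITM genes lie above the open ones, and the siUSP15 and siCtrl points overlap in every panel.

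In K562 none of the 4 members tested was called, with or without a block. Without a block edgeR called 0% of 13731 genes, 1447 had an unadjusted p under 0.05, DESeq2 called 227 and limma-voom 0. When the fit took the library set as a block, 6.88% of genes passed in the upward and 8.9% in the downward direction, but 0 of the 4 members. The log2 fold changes in that fit were 0.28 for IFIT3 (95% interval -0.10 to 0.66, adjusted p = 0.266 from edgeR), -0.07 for IFITM3 (-0.43 to 0.30, adjusted p = 0.824), -0.24 for IFITM2 (-0.45 to -0.02, adjusted p = 0.119) and -0.11 for IFITM1 (-0.21 to -0.02, adjusted p = 0.103). The intervals are not adjusted, and their upper ends lay below the KBM7 estimates for all 4 genes, including IFITM2, which was not called in KBM7. Blocking by replicate number gave 1022 called genes (7.44%) and again 0 members. Correlations between the libraries cannot tell pairs of the same number from the library sets. Without siUSP15 replicate 3 the fit with library sets called 1957 genes and 0 members. With the library sets as a block the median log2 fold change was -0.09 over the 4 members and 0.00 over all genes tested.

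Within the sets the members differed in direction. In replicates 1 and 2, USP15 averaged 125 CPM in siUSP15 and 272 CPM in siCtrl libraries. In replicates 3 and 4 it averaged 194 CPM in siUSP15 and 336 CPM in siCtrl libraries. IFIT3 was higher in both siUSP15 libraries than in both siCtrl libraries of its set, in replicates 1 and 2 as in replicates 3 and 4. The groups separated in this direction for 33.4% of genes in replicates 1 and 2 and for 23.9% in replicates 3 and 4. IFITM2 was lower with siUSP15 in replicates 1 and 2 alone (log2 fold change -0.40 ± 0.0928, adjusted p = 0.00544 from edgeR), where 17.1% of genes were called lower. In replicates 3 and 4 alone IFITM2 had a log2 fold change of 0.01 ± 0.110 (adjusted p = 0.976), and IFITM1 one of -0.17 ± 0.0446 (adjusted p = 0.0746), where 0.978% of genes were called lower. The difference between the sets was not tested. Among the 40 other interferon-stimulated genes, 25 were tested in K562, and in the fit with library sets 3 rose and 3 fell, with a median log2 fold change of 0.10. Among those with the highest level were TRIM25 (0.02), BST2, which tethers budding virus (0.15, called), and PARP12 (0.10).

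The responses of the 2 lines were then compared by the interaction of line and siRNA over all 12 libraries. The lines were counted in separate tables, so line and processing cannot be told apart in these differences either. Without a block 0 of the 7 members were called. Of the 15833 genes tested, 0.72% were called with the higher log2 fold change in KBM7. An unadjusted p under 0.05 was found for 2134 genes, and DESeq2 called 697. The differences in log2 fold change, KBM7 minus K562, were 1.58 ± 0.565 for IFITM3 (adjusted p = 0.233 from edgeR), 0.59 ± 0.210 for IFIT3 (0.226), 0.54 ± 0.213 for IFITM1 (0.289) and 0.36 ± 0.570 for IFITM2 (0.857). With the K562 library sets as a block these 4 members were called with the higher log2 fold change in KBM7, as were 7.94% of genes. The differences were then 1.63 ± 0.227 for IFITM3 (adjusted p = 1.11e-04), 0.62 ± 0.142 for IFIT3 (adjusted p = 0.00999), 0.55 ± 0.0875 for IFITM1 (adjusted p = 3.61e-04) and 0.36 ± 0.115 for IFITM2 (adjusted p = 0.0411). IFITM2 was called neither within KBM7 (log2 fold change 0.10) nor within K562 (-0.24 with the library sets as a block). With the replicate number as a block IFITM3, IFIT3 and IFITM1 were called (5.58% of genes in this direction) and IFITM2 was not (adjusted p = 0.0985). That block also pairs the KBM7 libraries, whose same-numbered libraries correlated at only 0.000978. For IFIT1, IFIT2 and IFIT5 the few K562 counts left wide unadjusted 95% intervals of the difference, from 0.31 to 2.16 for IFIT1, from -2.08 to 1.47 for IFIT2 and from -0.98 to 3.44 for IFIT5 without a block. Leaving out K562 siCtrl replicate 1, which holds 6 of the 7 IFIT2 counts of its group, moved the difference for IFIT2 to -2.39 (adjusted p = 0.269 from edgeR). Of the other interferon-stimulated genes, 34 were tested for the difference without a block. The log2 fold change was called higher in KBM7 for 7 and lower for 0, with a median difference of 0.74 against 0.00 over all genes.

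**Figure D4:**
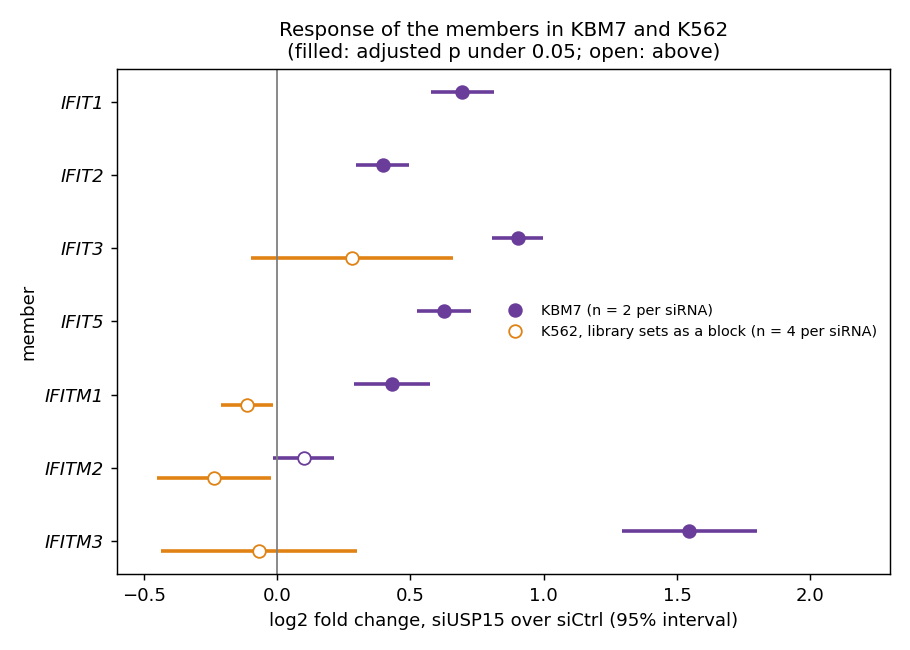
Log2 fold change, siUSP15 over siCtrl, of each member in KBM7 (purple, n = 2 per siRNA) and of the members tested in K562 with the library sets as a block (orange, n = 4 per siRNA), with unadjusted 95% intervals. IFIT1, IFIT2 and IFIT5 have no K562 value. KBM7 values lie right of 0 for 6 members with intervals that exclude it. No K562 value was called, although the unadjusted K562 intervals of IFITM2 and IFITM1 lie below 0.

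As a description, the genes most like each member were those with the highest Pearson correlation over the 12 libraries, after each library's log2 CPM was centred on its line and, in K562, on its library set. For IFIT3 these were PARP12 (0.98), ERLIN2 (0.98) and APOL1 (0.98), and for IFIT5 PSMB8-AS1 (0.99), FAM46C (0.98) and ZNF83 (0.97). IFITM1 was closest to PCTP (0.98), SLC25A12 (0.97) and PTH2R (0.96), IFITM2 to ECH1 (0.94), SMIM3 (0.94) and ERCC2 (0.94), and IFITM3 to ETFB (0.97), TUBE1 (0.96) and PSAT1 (0.96). IFIT1 was closest to EPHA1-AS1 (0.95), RP11-153F5.7 (0.93) and CCDC122 (0.93), and IFIT2 to RP11-620J15.3 (0.91), PTGR1 (0.89) and PARP8 (0.88). PARP12 and APOL1 are interferon-induced, and no member was among the 3 closest genes of another. These points share lines, library sets and siRNA groups, and the K562 values of IFIT1, IFIT2 and IFIT5 rest on single counts.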

How the data were processed

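The deposited gene counts are the authors' whole-number counts per Ensembl gene and library, made from TruSeq libraries aligned with TopHat2 2.1.0 to hg38. The submitters' notes name HTSeq for counting, and strand use is not given in the sources used here. The K562 table is named as batch corrected, but its count columns hold whole numbers and were used as deposited. Log2 CPM columns and the authors' own comparisons (log2 fold changes, adjusted p-values, mean levels) were not used.

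Members and gene lists were chosen with earlier results of these data known. Genes passed edgeR's filterByExpr, and siUSP15 was compared with siCtrl by edgeR's quasi-likelihood test (edgeR 4.0.16, R 4.3.3) with TMM factors and Benjamini-Hochberg adjustment over all genes tested, called at an adjusted p under 0.05. The fits covered KBM7, K562 without a block, K562 with its library sets (replicates 1 and 2, replicates 3 and 4) as a block, and the interaction over all 12 libraries. The sources used here do not say what sets these apart. DESeq2 1.42.0 and limma-voom (limma 3.58.1) were alternatives, with RLE factors, no filter, a threshold of 0.01, a replicate block and each library left out. The fits were tested on simulated counts. These held no difference between the K562 library sets, so they cannot tell which K562 fit suits the data. Named genes were all 7 members, USP15, up to 4 genes of a list with the highest mean level, apart from 1 gene not reported here, all tested cluster neighbours, the genes called in a list where these were few (CMTR1 and CMTR2, named after their values were seen, like IFNB1), and the 3 closest genes of each member.

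In K562 the deviations of same-numbered siUSP15 and siCtrl libraries from their group means correlated at 0.695, 0.550, 0.653 and 0.606. Libraries of the other number in the same set correlated about as well, so these values cannot tell pairing from the library sets. In KBM7 the correlation was 0.000978 over 2 pairs, which gives no sign of pairing. The replicate block was fitted as an alternative only. Canonical GENCODE transcripts gave lengths, and RefSeq gave promoters. Intervals and the limit of 3 counts for a count of 0 cover counting error or the spread between libraries only.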

Additional observations from a re-analysis of the deposited data

Results flagged for a closer look

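Of 16 groups of 4 K562 libraries, 2 held a library whose gap to its nearest neighbour exceeded 0.829 of the group's range, Dixon's limit for 4 samples. Chance passes that limit in about 1 of 20 groups if the 4 values are independent draws from 1 normal distribution. These groups join 2 library sets and the flagged ones hold few counts, so that rate need not hold here. For IFIT1 in siCtrl cells this share was 0.8526, with replicate 3 lowest at 2 counts beside 5 in each of the others. For IFIT2 in siCtrl cells it was 0.8465, with replicate 1 highest at 6 counts beside 0, 1 and 0 in the others. Both genes failed the filter on low counts in K562, and no comparison within K562 rests on them. The differences between the lines do. For IFIT2 the difference was -2.39 on the log2 scale without siCtrl replicate 1, instead of -0.31. For IFIT1 it was 1.47 without siCtrl replicate 3, instead of 1.23. None of these was called.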

How the results depend on the processing

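In KBM7 the 6 members called higher kept their call in all 10 settings, and IFITM2 gained one without siUSP15 replicate 2, so that 6 to 7 members were called higher with 1 library left out. Genes called there numbered 4345, against 2479 with DESeq2, 2481 at an adjusted p under 0.01 and 2214 to 5129 with 1 library left out (2214 without siCtrl replicate 1 and 2651 without siCtrl replicate 2). The replicate block left 4330 and changed no member's call in KBM7.

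In K562 without a block, 0 genes were called, against 1 without the filter, 227 with DESeq2, 1022 with the replicate block, 4775 in replicates 1 and 2 alone, 277 in replicates 3 and 4 alone and 0 to 1 with 1 library left out. Among the members, 1 was called lower in replicates 1 and 2 alone, IFITM2. With the library sets as a block 2167 genes were called, against 518 at an adjusted p under 0.01 and 555 to 2639 with 1 library left out (820 and 1344 when siUSP15 replicate 1 or 2 was dropped, 860 and 555 when siCtrl replicate 1 or 2 was), and no member in any of these.

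For the difference between the lines 268 genes were called, against 697 with DESeq2, 1789 with the replicate block (3 members), 2529 with the K562 sets as a block (4 members), 74 at an adjusted p under 0.01 and 40 to 250 with 1 library left out. Dropping a KBM7 library left 46 or 130 (siUSP15 replicate 1 or 2) and 94 or 40 (siCtrl replicate 1 or 2). Among the K562 libraries, dropping siUSP15 replicate 1 or 2 left 169 or 167, and dropping siCtrl replicate 2 left 168. Dropping any other K562 library left 181 to 250. The causes of these shifts were not tested. Members called in neither setting were counted as unchanged whatever their sign. Depth limits IFIT1, IFIT2 and IFIT5 in K562, where 0 counts allow up to 0.0684 to 0.127 normalized CPM.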
